A study of Mus musculus with 6 samples.

Results

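CpG-dense stretches of the genome that carried methylation in control male germ cells were examined in mouse pups without Tex15. DNA of germ cells from individual male pups at postnatal day 2.5 was treated with bisulfite and sequenced genome-wide: an unmethylated cytosine then appears as T, whereas a methylated cytosine still appears as C. The groups were Tex15KO (Tex15-/-, pups 3 and 16), Tex15HT (Tex15+/-, pups 7 and 18) and Tex15WT (Tex15+/+, pups 8 and 9), so n = 2 per group and each sample is a separate animal. All 6 pups came from matings of Tex15+/- parents on a mixed strain background, all carried the Oct4-GFP reporter by which their germ cells were sorted, and no other allele or agent is given. Only DNA was measured, so the sort could not be checked against marker expression. A tile is a 1 kb window of the mm9 mouse genome, counted from position 1 of each chromosome, with the calls of both strands summed. Its level is the methylated calls over all calls, in percent. A member tile held 20 or more CpGs of the deposited table, had at least 10 calls in every sample, and was methylated at 50% or more in the pooled calls of the 4 Tex15HT and Tex15WT controls. There were 876 members, which is 4.88% of the 17959 CpG-dense tested tiles of the autosomes. They make up 0.265% of the 330110 tested tiles (3 or more CpGs, 10 or more calls in each sample), which were not limited to autosomes. The control levels chose the members, so those levels are given as a description and support nothing by themselves. A member is also free to lie lower in Tex15KO and has little room above.

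Most CpG-dense sequence of mammals is CpG island, which stays unmethylated in nearly all cells and often surrounds the start of a gene. DNA methylation is erased in fetal germ cells, and in the male line it is laid down again before birth by de novo methyltransferases. The piRNA pathway guides part of that methylation to the promoters of young retrotransposons, which are CpG-rich repeats, and TEX15 is a germ cell protein known in the mouse to be needed for retrotransposon silencing and for meiosis.

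Sequences of 2 kinds of member are shown first. Some members that lay low in Tex15KO shared runs of CpG distances with places elsewhere in the genome, and 3 of the 32851 RefSeq promoters (GRCm38.p6) held such a run of 6 distances within the 250 bases upstream of the start. Their stretches are printed 5′ to 3′ on the strand of the gene with each CG in capitals, because they show what a run of these distances looks like as sequence. A match is one of spacing, not of the letters in the tile, which were not read here.
Gm36816, chr6:67009000-67009088, minus strand: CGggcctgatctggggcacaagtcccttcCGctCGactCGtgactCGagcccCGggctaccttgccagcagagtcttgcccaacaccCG
A230004M16Rik, chr11:41710224-41710312, plus strand: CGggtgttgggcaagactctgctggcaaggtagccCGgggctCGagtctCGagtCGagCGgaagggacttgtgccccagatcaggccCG
Gm35240, chr12:77553551-77553613, plus strand: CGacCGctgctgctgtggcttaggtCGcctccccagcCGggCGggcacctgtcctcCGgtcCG
The distances 29-4-5-7-7-35 of Gm36816 occurred in the member chr13:40721001-40722000 (mm9) in the same direction, and those of A230004M16Rik are the same run in reverse. The reverse complement of the A230004M16Rik stretch equals the Gm36816 stretch at 88 of 89 bases (98.9%). The distances 4-21-12-4-15-5 of Gm35240 occurred in the member chr12:96823001-96824000 (mm9).

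The second kind holds the start of a gene, and its tile was at 50% or more in both Tex15KO pups. The 250 upstream bases of 3 such promoters (RefSeq, GRCm38.p6) are given for comparison, again with each CG in capitals.
Tmem267, chr13:119488223-119488472, plus strand: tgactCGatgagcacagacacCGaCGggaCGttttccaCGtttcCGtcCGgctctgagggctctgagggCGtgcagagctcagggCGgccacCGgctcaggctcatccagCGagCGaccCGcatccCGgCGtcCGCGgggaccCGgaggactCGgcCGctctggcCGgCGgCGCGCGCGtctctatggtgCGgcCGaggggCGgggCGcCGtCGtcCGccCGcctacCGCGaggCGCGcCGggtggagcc
Gm40237, chr4:118547156-118547405, plus strand: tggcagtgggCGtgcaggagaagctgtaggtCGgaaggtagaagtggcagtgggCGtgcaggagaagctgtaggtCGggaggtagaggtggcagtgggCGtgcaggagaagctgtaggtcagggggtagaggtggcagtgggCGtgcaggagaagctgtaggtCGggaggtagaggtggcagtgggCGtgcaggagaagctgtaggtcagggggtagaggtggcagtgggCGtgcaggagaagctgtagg
Myl2, chr5:122092939-122093188, plus strand: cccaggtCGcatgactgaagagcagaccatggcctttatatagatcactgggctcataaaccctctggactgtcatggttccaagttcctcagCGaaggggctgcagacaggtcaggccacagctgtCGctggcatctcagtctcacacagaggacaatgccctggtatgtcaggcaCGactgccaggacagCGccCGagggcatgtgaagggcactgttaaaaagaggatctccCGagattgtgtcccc
Tmem267 has 39 CpGs in this stretch, against 9 in that of Gm40237 and 7 in that of Myl2. The printed stretch of Myl2 itself had 0 calls in Tex15KO 3 and was at 87.8% in Tex15KO 16. That of Gm40237 was at 49.6 and 54.8% in Tex15KO, 50.9 and 53.2% in Tex15HT and 51.3 and 50.6% in Tex15WT.

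The samples held between 27495658 and 52935635 calls in all, and between 86205 and 143114 in the members, at a median of 62 to 102 calls per member. Tex15KO 3 stood apart. It covered 38.4% of the 19514 CpGs of the members, against 98.3% in Tex15KO 16 and 92.2 to 96.0% in the controls, and its covered CpGs had a median of 8 calls, against 3 or 4. Among member CpGs with 6 to 10 calls, the calls were all alike in 93.8% in Tex15KO 3, against 46.3% in Tex15KO 16 and 38.5 to 48.5% in the controls. Its tiles therefore rest on fewer CpGs than their calls imply, and results are given for each Tex15KO pup.

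Averaged over all members, the tile level in Tex15KO was lower than in the controls, whose levels had chosen the members. The mean tile level was 80.7 and 80.6% in Tex15KO 3 and 16, 84.0 and 84.0% in Tex15HT 7 and 18, and 83.5 and 81.4% in Tex15WT 8 and 9. The group means were 80.7% ± 0.0536 in Tex15KO, 84.0% ± 0.0312 in Tex15HT and 82.4% ± 1.46 in Tex15WT (SD, n = 2 each), a difference of -3.31 points from Tex15HT and -1.77 points from Tex15WT. Both Tex15KO pups lay below all 4 controls in this mean, by less than a point below Tex15WT 9. The medians went the other way in Tex15KO 3, at 95.5% there and 89.7% in Tex15KO 16, against 90.6 and 89.5% in the Tex15HT pups and 89.5 and 86.5% in the Tex15WT pups. The Tex15KO mean exceeded the mean of the controls in 520 members and was under it in 356. With all calls of the members summed, where deep tiles weigh most, the level was 73.0% (95% Wilson interval 72.7 to 73.3) in Tex15KO 3 and 70.5% (70.3 to 70.7) in Tex15KO 16. It lay between 76.4 and 78.3% in the controls. Reads copied by PCR could not be recognised as such, so these intervals and limits cover counting error only.

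A tail of members with little methylation set both Tex15KO pups apart. Tiles under 50% numbered 127 in Tex15KO 3 and 79 in Tex15KO 16, against 35 and 24 in Tex15HT 7 and 18 and 29 and 38 in Tex15WT 8 and 9. Tiles under 20% numbered 62 in Tex15KO 3 and 20 in Tex15KO 16, and there were 0 in each control. Of the tiles under 50%, 49 were shared by both Tex15KO pups, which is 62.0% of those of Tex15KO 16 and 38.6% of those of Tex15KO 3. At the other end, 367 members (41.9%) were at exactly 100% in Tex15KO 3, against 0.913% in Tex15KO 16 and 2.40 to 4.91% in the controls. In 682 members (77.9%) all 6 samples lay at 50% or more.

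**Figure D1:**
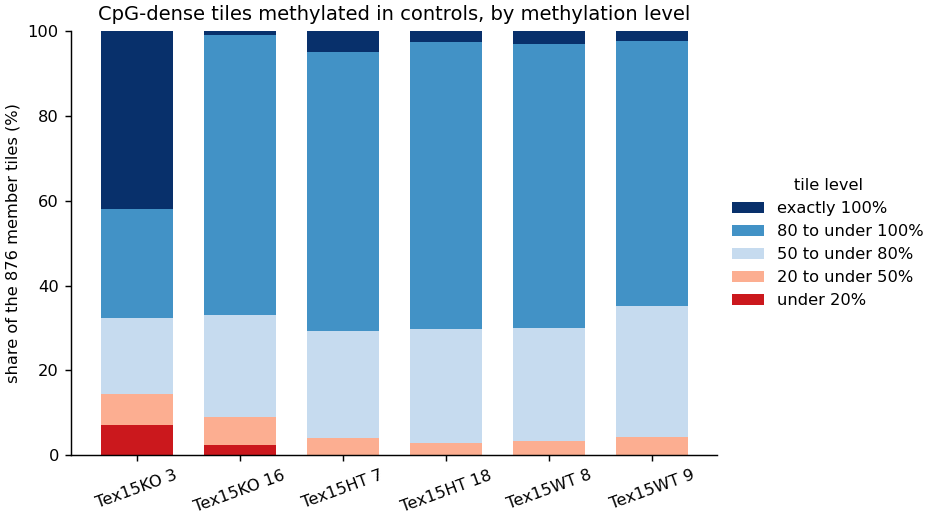
Share of the 876 members (vertical axis, %) in 5 classes of tile level, as stacked bars for each pup. Tiles under 20% occur in Tex15KO 3 (7.08%) and Tex15KO 16 (2.28%) and in 0 members of each control, and tiles at exactly 100% make up 41.9% in Tex15KO 3.

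Since controls were used to choose the members, each control was also left out of the choice in turn and then measured in the tiles that the other 3 chose (876 to 881 tiles). The Tex15KO pups had 14.4 to 14.9% of these tiles under 50% in Tex15KO 3 and 8.45 to 9.92% in Tex15KO 16. The control not used had 4.56 to 5.56%. Under 20% were 63 to 66 tiles in Tex15KO 3 and 19 to 22 in Tex15KO 16, against 1 tile in Tex15WT 9 and 0 in each of the other 3 controls. A control that took no part in the choice thus also had fewer low tiles than either Tex15KO pup. The mean level of the control not used was 83.3% for Tex15HT 7, 83.4% for Tex15HT 18, 83.0% for Tex15WT 8 and 81.0% for Tex15WT 9. In the same tiles the Tex15KO pups lay between 80.3 and 80.7%. In those chosen without Tex15WT 9, Tex15KO 3 was at 80.6% and Tex15KO 16 at 80.7%, close to that control.

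In 23 members (2.63%) both Tex15KO pups lay more than 30 points below each of the 4 controls, and in 0 members did both lie more than 30 points above. The same margin held in 0.456% of all tested tiles below and in 0.0194% above. By any margin, both Tex15KO pups lay below all controls in 85 members (9.70%, against 4.32% of all tested tiles) and above all in 90 (10.3%, against 8.24%). Tiles chosen by the same control level but with fewer CpGs are the nearer comparison: the 30-point margin was met by 551 of 57046 such tiles with 10 to 19 CpGs (0.966%) and by 887 of 215768 with 3 to 9 CpGs (0.411%). By any margin, both Tex15KO pups lay below all controls in 4.9 and 3.59% of these 2 sets. They lay above all in 10.3 and 8.26%, so the share above was no greater in members than with 10 to 19 CpGs. The lowest call count of a tile over the 6 samples had a median of 41 in members, 21 with 10 to 19 CpGs and 13 with 3 to 9, and its part in these shares was not tested. Taken alone, Tex15KO 16 met the margin in 33 members below and 0 above, and Tex15KO 3 in 78 below and 17 above.

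**Figure D2:**
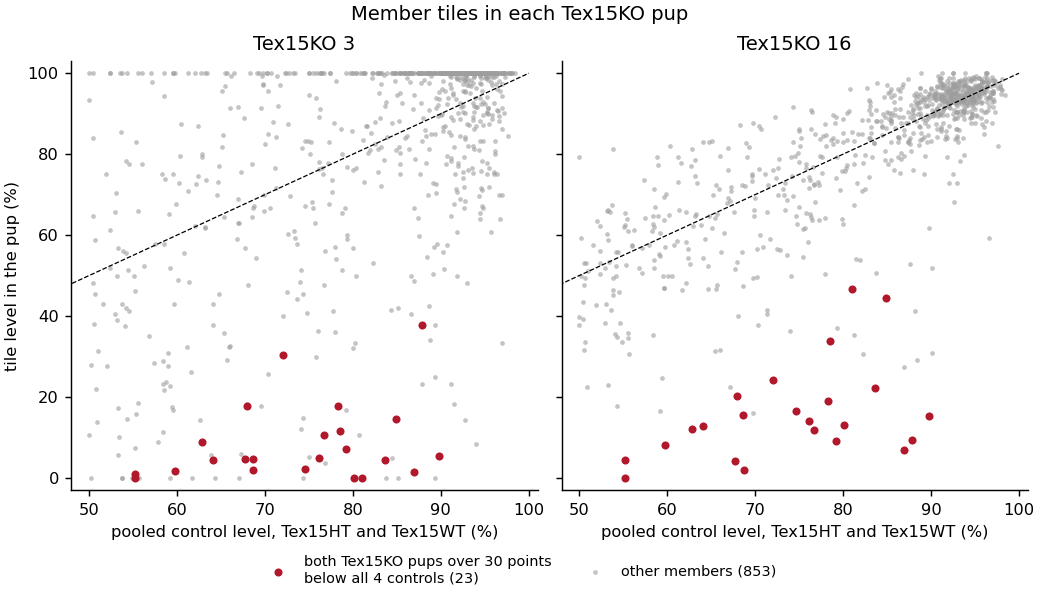
Tile level in Tex15KO 3 (left) and Tex15KO 16 (right) against the pooled level of the 4 controls (horizontal axis, %) for the 876 members. Red points are the 23 members with both Tex15KO pups over 30 points below every control, grey points the other 853, and the dashed line marks equal levels.

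Across the 23 tiles the mean level was 8.43% in Tex15KO 3 and 15.9% in Tex15KO 16, against 71.9 and 70.7% in Tex15HT 7 and 18 and 75.5 and 78.6% in Tex15WT 8 and 9. The tiles were picked for this gap, so the means describe it and do not test it. In 16 of the 23 both Tex15KO pups were under 20%, the highest Tex15KO level in any of them was 46.6%, and the lowest control level was 41.1%. They lay on 11 chromosomes, with 4 on chromosome 13 and 3 each on chromosomes 3, 4 and 12. Over the other 853 members the mean was 82.7% in Tex15KO 3 and 82.4% in Tex15KO 16, with group means of 82.5% in Tex15KO, 84.3% in Tex15HT and 82.6% in Tex15WT.

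**Figure D3:**
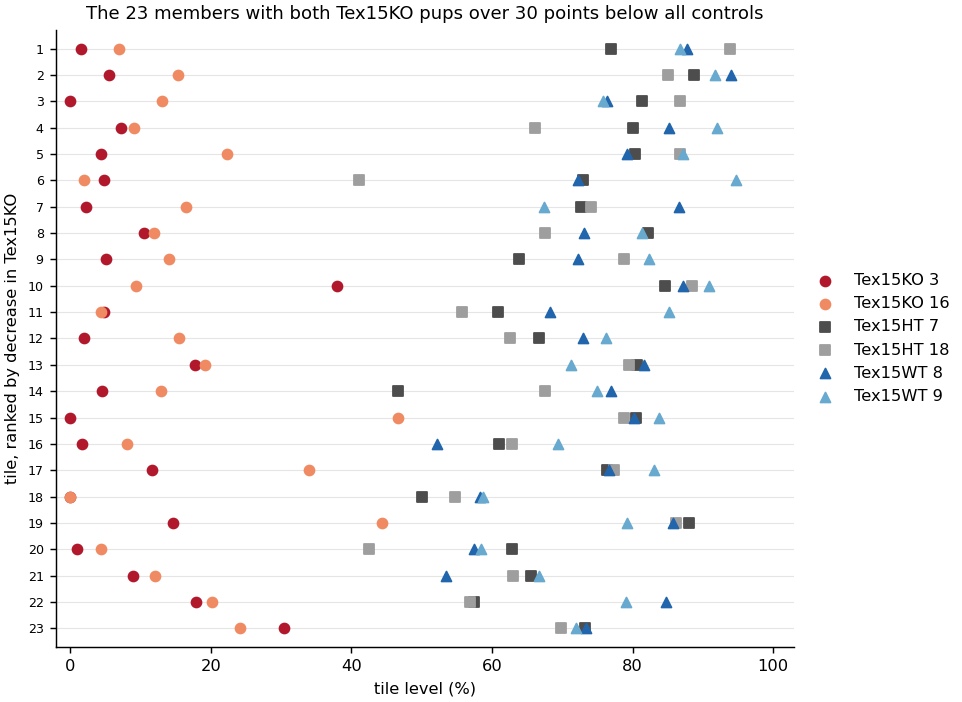
Level (horizontal axis, %) of each of the 23 members in the 6 pups, with tiles ranked downwards by the difference of the Tex15KO mean from the mean of the controls, which was between -82.1 and -44.8 points. Circles are Tex15KO, squares Tex15HT and triangles Tex15WT pups, and in every row both circles lie left of all other symbols.

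Each tile was tested with edgeR's quasi-likelihood test on methylated and unmethylated calls, fitted over all 330110 tested tiles, and called at a Benjamini-Hochberg adjusted p under 0.05. Against Tex15WT, 4 members were lower in Tex15KO (0.457%) and 0 higher, where 0.00939% of all tested tiles were called lower and 0.000303% higher. Against Tex15HT, 2 members were lower (0.228%) and 0 higher, where 0.00485% and 0.000909% of all tiles were called. Against the mean of both control groups, 7 members were lower (0.799%) and 0 higher, where 0.0379% and 0.000606% of all tiles were called. In these 3 comparisons 8, 2 and 51 of the 57046 tiles methylated in controls with 10 to 19 CpGs were called lower. So were 3, 3 and 47 of the 215768 with 3 to 9 CpGs, and 14, 9 and 17 of the 17083 CpG-dense tiles under 50% in controls. The median lowest call count was 41 in members and 15 over all tested tiles, and its part in the calls was not tested. At an unadjusted p under 0.05 in edgeR the counts of lower and higher members were 38 and 14 against Tex15WT, 31 and 6 against Tex15HT, and 41 and 12 against both. Limma, on the log2 ratio of methylated to unmethylated calls with 1 added to each, called 5, 4 and 15 members lower in these 3 comparisons and 0 higher, where 0.0963%, 0.0612% and 0.271% of all tiles were called lower. At an unadjusted p under 0.05 limma gave 49 lower and 56 higher members against Tex15WT, 59 and 30 against Tex15HT, and 65 and 60 against both. The lean of edgeR to lower members was thus reversed in limma against Tex15WT and slight against both control groups. No share over all tested tiles was taken at the unadjusted threshold. The same control samples stand in these comparisons. All 7 members that edgeR called and all 15 that limma called against both control groups were among the 23 tiles above, and both tools called 6 of them.

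The edgeR counts moved with each sample left out. Against Tex15WT the 4 became 13 without Tex15KO 3, 106 without Tex15KO 16 (53 lower and 53 higher), 2 without Tex15HT 7 or without Tex15HT 18, and 1 without Tex15WT 8 or without Tex15WT 9. Against Tex15HT the 2 became 9 without Tex15KO 3, 93 without Tex15KO 16 (56 lower and 37 higher) and 1 without any of the controls. Against both control groups the 7 became 18 without Tex15KO 3, 123 without Tex15KO 16 (70 lower and 53 higher) and 2 without any of the controls. A lone pup of a group is assumed there to vary like the other groups. Without the top 0.1% of coverage edgeR called 0 members against Tex15WT, 0 against Tex15HT and 2 against both. The dispersion shared by all tiles was 0.347 with all 6 samples, 0.110 without Tex15KO 3, 0.111 without Tex15KO 16 and 0.411 to 0.420 without a control. The fit estimated infinite prior degrees of freedom, so the p of a tile does not measure how far the pups differed at that tile.

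The member with the largest gap was chr7:24669001-24670000 (20 CpGs). Its level was 1.56 and 6.94% in Tex15KO 3 and 16, 76.9 and 93.9% in Tex15HT 7 and 18, and 87.7 and 86.8% in Tex15WT 8 and 9, on 38 to 72 calls per sample. Both Tex15KO pups lay below every control, and the Tex15KO mean lay 82.1 points below that of the 4 controls. EdgeR called it against both control groups (adjusted p = 0.0192) and not against Tex15WT (0.147) or Tex15HT (0.222) alone, and limma called it in all 3 (0.00442, 0.0207 and 0.0269).

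The tile chr13:40721001-40722000 (24 CpGs), which shares its spacing with the Gm36816 stretch printed above, was at 5.48 and 15.3% in Tex15KO, 88.8 and 85.1% in Tex15HT and 94.0 and 91.7% in Tex15WT, on 166 to 438 calls. With all 6 samples, both tools called it in every comparison with Tex15KO (edgeR adjusted p = 0.00132 against Tex15WT, 0.0278 against Tex15HT and 0.000188 against both; limma 0.0184, 0.0433 and 0.00538). Without the top 0.1% of coverage edgeR called it neither against Tex15WT (0.208) nor against Tex15HT (0.770). The tile chr13:113308001-113309000 (21 CpGs) had 0 methylated calls of 84 and of 102 in Tex15KO, which allows up to 3.57 and 2.94%. It was at 50 and 54.8% in Tex15HT and 58.3 and 58.7% in Tex15WT. It was called against Tex15WT by edgeR (0.0385) and limma (0.0165), and against Tex15HT by limma alone (0.0228, edgeR 0.0812). EdgeR did not call it against Tex15WT without the top 0.1% of coverage (0.119).

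In chr13:100994001-100995000 (25 CpGs) both Tex15KO pups were near 0 while the controls spread widely. Its level was 4.77 and 2.00% in Tex15KO, 72.9 and 41.1% in Tex15HT and 72.3 and 94.7% in Tex15WT. It was called against Tex15WT by both tools (edgeR 0.0103, limma 0.0201), and against Tex15HT by neither (0.410 and 0.162). EdgeR did not call it against Tex15WT without the top 0.1% of coverage (0.200). The tile chr5:15011001-15012000 (23 CpGs) was at 2.16 and 16.5% in Tex15KO, 72.7 and 74.1% in Tex15HT and 86.6 and 67.4% in Tex15WT, and was called against both control groups (edgeR 0.0229, limma 0.0227). The tile chr12:96823001-96824000 (20 CpGs), whose spacing the Gm35240 stretch shares, was at 10.5 and 11.9% in Tex15KO, 82.2 and 67.6% in Tex15HT and 73.1 and 81.4% in Tex15WT (edgeR 0.0492, limma 0.0313 against both). In each of these 3 tiles both Tex15KO pups lay below every control.

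The seventh call is a tile of extreme depth. In chr11:3093001-3094000 (60 CpGs) there were between 5097 and 12192 calls per sample, against a median of 62 to 102 over the members. Its level was 30.4 and 24.1% in Tex15KO, 73.2 and 69.8% in Tex15HT and 73.4 and 71.9% in Tex15WT. EdgeR called it in all 3 comparisons (9.13e-14 against Tex15WT, 6.20e-13 against Tex15HT and 1.10e-18 against both), and limma, which gives depth no weight here, in none (0.582, 0.780 and 0.417). The gap was 44.8 points and both Tex15KO pups lay below every control. Such depth at a single place can come from reads of several copies, and this was not tested.

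The other 5 tiles named for the size of their gap were not called by edgeR in any comparison, although limma called each against both control groups (adjusted p 0.0110 to 0.0471). The tile chr3:33601001-33602000 was at 0 and 13.1% in Tex15KO, 81.4 and 86.7% in Tex15HT and 76.3 and 75.8% in Tex15WT; the 0 rests on 27 calls and allows up to 11.1%. The tile chr3:137263001-137264000 was at 7.14 and 9.09% in Tex15KO, 80 and 66.1% in Tex15HT and 85.2 and 92.0% in Tex15WT. The tile chr6:60011001-60012000 was at 4.35 and 22.3% in Tex15KO, 80.4 and 86.7% in Tex15HT and 79.2 and 87.2% in Tex15WT. The last 2 were chr1:168870001-168871000 (5.05 and 14.1% in Tex15KO, 63.8 and 78.8% in Tex15HT, 72.2 and 82.4% in Tex15WT) and chr13:70021001-70022000, where the Tex15KO pups differed most within this set of tiles (37.9 and 9.30%, against 84.6 and 88.4% in Tex15HT and 87.2 and 90.9% in Tex15WT).

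Some of the other tiles among the 23 are given next, chosen with their values in view. In chr4:109859001-109860000 the level was 4.76 and 4.31% in Tex15KO, 60.8 and 55.8% in Tex15HT and 68.3 and 85.2% in Tex15WT. In chr3:106088001-106089000, which shares spacing with it, the level was 1.63 and 8.04% in Tex15KO, 61.0 and 62.8% in Tex15HT and 52.2 and 69.4% in Tex15WT. In chr11:26569001-26570000, which shares part of that spacing, the level was 17.9 and 20.2% in Tex15KO, 57.4 and 56.9% in Tex15HT and 84.8 and 79.1% in Tex15WT. In all 3 tiles both Tex15KO pups were lowest. In chr4:109859001-109860000 and chr11:26569001-26570000 both Tex15HT pups also lay below both Tex15WT pups, whereas in chr3:106088001-106089000 the control groups overlapped. The level was 0.990 and 4.35% in Tex15KO, 62.9 and 42.5% in Tex15HT and 57.5 and 58.5% in Tex15WT at chr5:26397001-26398000. At chr10:83115001-83116000 it was 14.6 and 44.4% in Tex15KO, 88.0 and 86.2% in Tex15HT and 85.7 and 79.2% in Tex15WT, so that Tex15KO 16 kept more methylation than Tex15KO 3. Such a partial level in Tex15KO 16 alone was also seen at chr4:146864001-146865000 (33.9%, against 11.6% in Tex15KO 3). In 4 of the 23 tiles Tex15KO 16 was the lower of the Tex15KO pups.

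The levels of single CpGs within the 23 tiles are given as a description, since the tile levels that chose the 23 largely fix them. Of the 582 CpGs of the 23 tiles, 288 had 3 or more calls in Tex15KO 3 and 529 in Tex15KO 16. Among these, 266 of 288 (92.4%) were under 50% in Tex15KO 3 and 483 of 529 (91.3%) in Tex15KO 16. In the controls 10.7 to 19.3% were. Among the CpGs of the other 853 members the shares were 17.6% in Tex15KO 3, 11.6% in Tex15KO 16 and 9.53 to 12.5% in the controls.

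Outside the tile, methylation in Tex15KO came closer to the control level with distance. Between 0.5 and 1 kb from the centre the mean level was 32.2% on the left and 36.4% on the right in Tex15KO 16, against 69.5 to 78.3% and 70.1 to 75.2% in the controls. Between 1 and 2 kb it was 60.5 and 73.0% in Tex15KO 16, against 77.7 to 84.0% and 73.5 to 84.7% in the controls. Between 2 and 3 kb it was 84.5 and 64.5% in Tex15KO 3 and 73.9 and 72.6% in Tex15KO 16, against 78.9 to 92.0% and 72.5 to 77.1% in the controls. Between 3 and 5 kb both Tex15KO pups still lay below the controls on the left, at 70.4 and 70.9%, against 72.1 to 78.0%, and above them on the right, at 85.0 and 79.8%, against 73.4 to 78.7%. Beyond 5 kb it was 75.4 and 74.7% in Tex15KO 16 and 74.4 and 73.8% in Tex15KO 3, and the controls lay between 69.8 and 79.1%. Tex15KO 3 followed the same shape, with the flanking windows within 2 kb measured in only 8 to 14 of the 23 tiles. In these windows Tex15KO 16 was measured in 13 to 19 tiles and the controls in 10 to 20. The means compared in a window therefore rest on partly different tiles. In 6 of the 23 an adjoining tile also had both Tex15KO pups over 30 points below all controls.

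**Figure D4:**
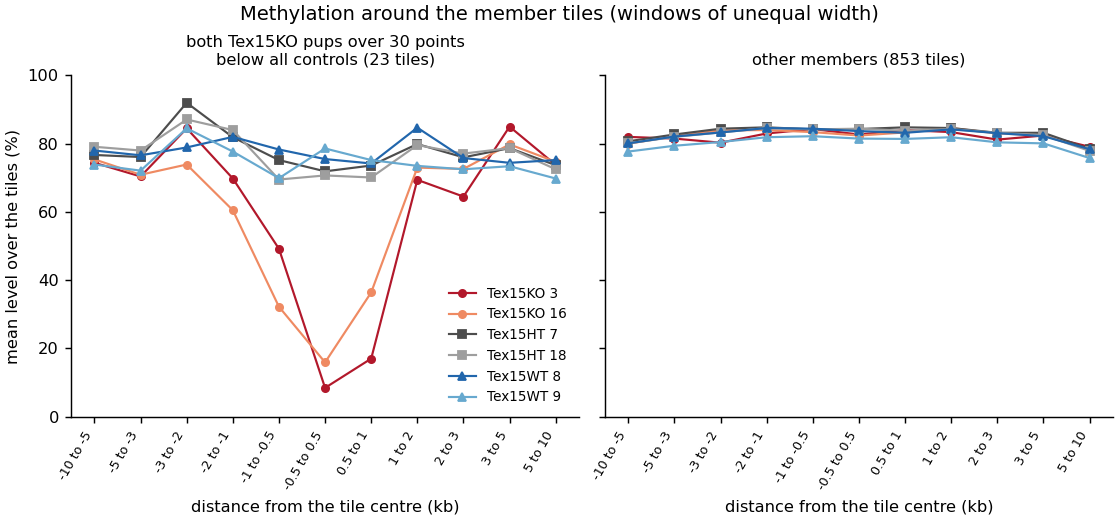
Mean level (vertical axis, %) by distance from the tile centre (kb, in windows of unequal width) for each pup, around the 23 low tiles (left) and the other 853 members (right). Left, both Tex15KO lines dip to 8.43 and 15.9% in the central 1 kb and lie higher on both sides of it; right, the 6 lines run together.

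The 23 tiles were not drawn from the most fully methylated members. Of the 417 members with a control level of 90% or more, 0 met the 30-point margin, and their means were 93.5 and 93.4% in Tex15KO, 94.5 and 93.9% in Tex15HT and 93.7 and 92.4% in Tex15WT. Of the 285 members at 70 to 90%, 14 met it (4.91%), and of the 174 at 50 to 70%, 9 (5.17%). The share was 2.05% in members with 20 CpGs, 2.23% with 21 to 24, 3.70% with 25 to 29 and 11.1% with 30 or more, the last resting on 3 of 27 tiles. These 3 were chr11:3093001-3094000 above, chr12:20239001-20240000 (43 CpGs; 0 and 46.6% in Tex15KO, 80.5 and 78.8% in Tex15HT, 80.2 and 83.8% in Tex15WT) and chr4:146864001-146865000 (30 CpGs; 11.6 and 33.9% in Tex15KO, 76.4 and 77.4% in Tex15HT, 76.7 and 83.1% in Tex15WT).

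Without a genome of the build, repeated sequence was sought from the distances between CpGs. A run of 5 successive distances found at 10 or more places of the table, in either direction, was called recurring, and members were split by whether such runs held 3 or more different distances or only 1 or 2, as tandem repeats of a short unit do. This split was made after the values were seen and has no test. Of the 18 members with recurring runs of 3 or more different distances, 5 met the 30-point margin (27.8%), and the mean level was 57.8 and 54.4% in Tex15KO, 82.9 and 83.1% in Tex15HT and 85.3 and 81.9% in Tex15WT. Of the 29 with runs of 1 or 2 different distances, 0 met it, with means of 82.2 and 84.5% in Tex15KO, 84.9 and 85.5% in Tex15HT and 82.2 and 82.3% in Tex15WT. Of the 820 members with no recurring run 18 met it (2.20%), and of the 9 with both kinds, 0.

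**Figure D5:**
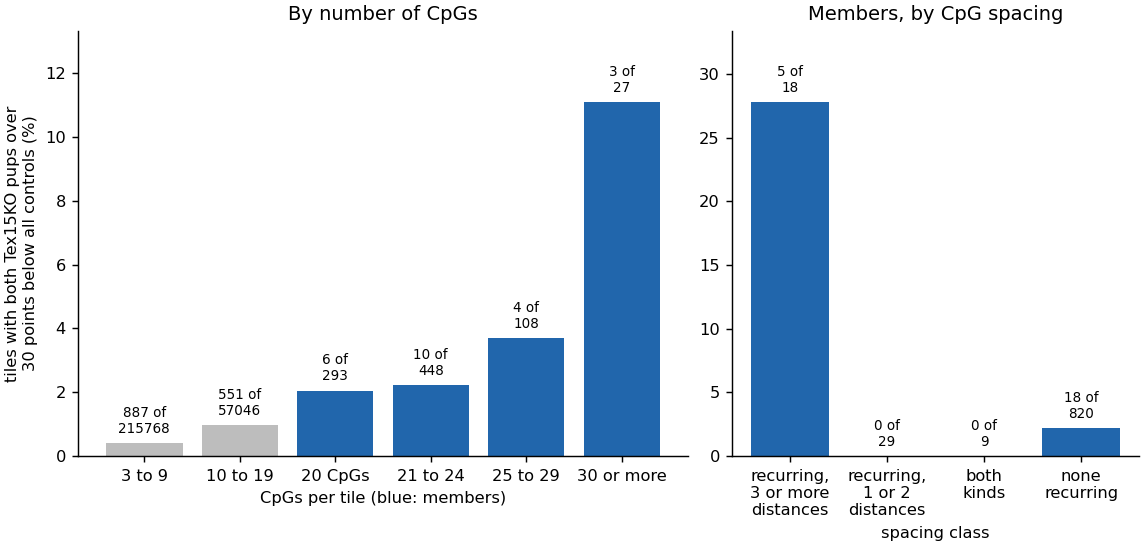
Share of tiles (vertical axes, %) with both Tex15KO pups over 30 points below all controls, by number of CpGs per tile (left; grey bars are tiles methylated at 50% or more in controls that have under 20 CpGs, blue bars are members) and by CpG spacing of the members (right). Numbers over the bars are the counts; the panels have different scales, and the highest bars rest on 3 of 27 and 5 of 18 tiles.

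Among the 18, levels were uneven, and 4 members are given here that were chosen with their values in view. The member chr7:50404001-50405000 was at 48.6 and 27.5% in Tex15KO, 78.5 and 89.7% in Tex15HT and 96.8 and 80.6% in Tex15WT. The member chr8:98532001-98533000 was at 53.0 and 30.7% in Tex15KO, 74.5 and 80.5% in Tex15HT and 93.5 and 82.1% in Tex15WT. In chr10:105028001-105029000 the level was 12.2 and 50% in Tex15KO, 77.3 and 62.7% in Tex15HT and 82.2 and 65.5% in Tex15WT. Both Tex15KO pups lay below every control in these 3, outside the 30-point margin. Others of the 18 were high, such as chr12:8850001-8851000 at 100 and 93.9% in Tex15KO.

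Some of the 23 tiles shared spacing with each other. The run 29-24-15-2-2-18 (7 CpGs over 92 bp) stood in chr3:33601001-33602000 and chr13:70021001-70022000. The run 12-21-4-13-7-3-37 (8 CpGs, 99 bp) stood in chr3:137263001-137264000 and chr12:96823001-96824000, and 16-18-20-5-10-7-4 (8 CpGs, 82 bp) in chr4:109859001-109860000 and chr3:106088001-106089000, with its 5 inner CpGs also in chr11:26569001-26570000. Within chr13:40721001-40722000 the run 4-5-7-7 came 3 times, each 208 bp after the last, and within chr5:15011001-15012000 the run 17-26-37-15 came 2 times, 199 bp apart. The member chr1:186714001-186715000 shares a run with the low tile chr10:83115001-83116000. It was at 98.6 and 79.4% in Tex15KO, 91.8 and 97.5% in Tex15HT and 85.7 and 100% in Tex15WT. Whether spacing bears on the level was not tested. Because runs are shared, the 23 tiles should not be counted as 23 unrelated sequences.

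Gene starts were rare in the members. Of 32851 RefSeq promoters, 6230 could be placed on the table by the spacing of their CpGs, 6211 of them (99.7%) on the chromosome that RefSeq gives. A placed start lay in 10 members (1.14%), against 3778 of the 17083 CpG-dense tiles under 50% in controls (22.1%). Of these 10 members, 0 were among the 23 low tiles, which are 2.63% of all members, so 10 are too few to show a difference. The median distance to the nearest placed start was 62051 bp over all members and 291638 bp over the 23, and 238 members (27.2%) but 0 of the 23 lay downstream of a placed start within that gene's length. Most promoters were not placed, so these distances are upper limits and the counts within a gene's length are lower limits. The 0 of the 23 therefore does not place these tiles outside genes. Whether a tile is exonic or intronic was not analysed here.

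The member with the most CpGs, chr13:120277001-120278000 with 97, holds the starts of Tmem267, which encodes a transmembrane protein, and of the divergent lncRNA 3110070M22Rik. Its level was 64.5 and 72.4% in Tex15KO, 60.5 and 70% in Tex15HT and 72.1 and 66.3% in Tex15WT, on 1078 to 2854 calls, and the groups overlapped. Myl2, which encodes a myosin light chain of heart and slow muscle, has its start in chr5:122543001-122544000, at 100 and 90.6% in Tex15KO, 97.5 and 90% in Tex15HT and 90.5 and 87.6% in Tex15WT. The tile of the lncRNA Gm52172, chr15:83666001-83667000, was likewise high, at 100 and 92.1% in Tex15KO, 93.8 and 91.0% in Tex15HT and 92.9 and 100% in Tex15WT.

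The gene Abr has a start in chr11:76322001-76323000, at 40 and 76.2% in Tex15KO, 52.5 and 88.0% in Tex15HT and 66.7 and 68.2% in Tex15WT. There the pups within Tex15KO and within Tex15HT differed more than the groups did. The remaining starts were those of the lncRNAs Gm16701, Gm30039 and Gm31912, of 3425401B19Rik, and of Gm51594 and Gm51597, whose near-identical promoters matched the same place on chromosome 8 and cannot be told apart. At the Gm30039 start the tile was at 40.5 and 38.4% in Tex15KO, 64.9 and 54.9% in Tex15HT and 43.5 and 52.1% in Tex15WT. Both Tex15KO pups lay below every control there. The Gm31912 tile was at 27.6 and 63.4% in Tex15KO (controls 32.0 to 77.4%), and that of 3425401B19Rik at 100 and 46.7% (57.4 to 72.2%). The shared tile of Gm51594 and Gm51597 was at 71.7 and 40.5% (63.0 to 78.2%), and that of Gm16701 at 100 and 57.0% (56.4 to 63.1%). Of the starts of imprinted, piRNA pathway and germline genes looked for, 0 lay in a member. Of these lists 5 of 34, 9 of 28 and 15 of 29 genes could be placed, and the highest control level of a CpG-dense tile at such a start was 4.99, 11.0 and 17.7%. The lists had 4, 8 and 12 CpG-dense start tiles, and over all placed promoters 10 of 3788 such tiles (0.264%) were members.

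The deepest members were named for their depth alone. After chr11:3093001-3094000 came chr4:118220001-118221000, which holds the start of the lncRNA Gm40237 and runs of CpGs 44 bp apart, the spacing that shows as a repeated unit in the sequence printed above. On 5640 to 9387 calls it was at 51.5 and 55.8% in Tex15KO, 56.1 and 57.0% in Tex15HT and 52.5 and 51.2% in Tex15WT. The next tile, chr4:118221001-118222000, was at 52.0 and 53.0% in Tex15KO, 52.7 and 55.1% in Tex15HT and 50.2 and 50.9% in Tex15WT. In both, groups overlapped or lay within a few points of each other.

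The other deep members lie in Pou5f1, which encodes the pluripotency factor OCT4 and whose regulatory sequence drives the Oct4-GFP reporter of all pups. In chr17:35643001-35644000, whose centre lies 524 bp downstream of the placed start, the level was 68.1 and 54.5% in Tex15KO, 71.2 and 71.1% in Tex15HT and 79.1 and 82.3% in Tex15WT, on 1796 to 4175 calls. The Tex15KO pups were lowest and the Tex15WT pups highest without overlap, but the Tex15KO pups differed by more than the gap to Tex15HT, and neither tool called it (adjusted p of 0.998 in edgeR and 0.656 in limma against Tex15WT). In chr17:35646001-35647000 it was 78.1 and 71.6% in Tex15KO, 75.1 and 74.5% in Tex15HT and 78.5 and 76.8% in Tex15WT, and the groups overlapped. In chr17:35644001-35645000, singled out after its values were seen, it was 91.3 and 89.8% in Tex15KO, 89.3 and 90.4% in Tex15HT and 89.5 and 88.2% in Tex15WT. Reads of the endogenous gene and of the reporter cannot be told apart in these calls.

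With all 6 samples, edgeR and limma called 0 members higher in Tex15KO. The 3 members with the largest excess among those with both Tex15KO pups above all controls were at exactly 100% in Tex15KO 3. The tile chr17:83975001-83976000 was at 100 and 79.2% in Tex15KO, 62.7 and 49.4% in Tex15HT and 51.6 and 41.0% in Tex15WT, with 26 calls in Tex15KO 3. The tile chr1:134498001-134499000 was at 100 and 65.8% in Tex15KO, 44.9 and 63.0% in Tex15HT and 49.4 and 55.3% in Tex15WT, and chr11:69160001-69161000 at 100 and 67.4% in Tex15KO, 66.7 and 52.9% in Tex15HT and 39.5 and 59.1% in Tex15WT. In Tex15KO 16 all 3 lay nearer to the controls.

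At the threshold itself, the members just inside were chr17:83975001-83976000 and chr13:51324001-51325000, this second tile at 93.4 and 39.8% in Tex15KO, 46.9 and 54.7% in Tex15HT and 44.1 and 50% in Tex15WT. Just outside were chr9:20772001-20773000, at 83.9 and 62.7% in Tex15KO, 38.6 and 41.3% in Tex15HT and 59.7 and 60% in Tex15WT, and chr17:27177001-27178000, at 61.5 and 35.6% in Tex15KO, 63.6 and 39.2% in Tex15HT and 52.1 and 57.1% in Tex15WT.

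Between the control groups no member was called by edgeR or limma (unadjusted p under 0.05 in 0 lower and 1 higher by edgeR and in 2 and 6 by limma), where edgeR called 0.00121% of all tested tiles lower. In the 23 low tiles Tex15HT lay 5.76 points below Tex15WT on average, and below it in 17 of them. Over the other 853 members Tex15HT averaged 84.3% and Tex15WT 82.6%. Some of the 23 share spacing runs, so the 17 are not separate counts. The gap was widest among the named tiles at chr13:100994001-100995000, where Tex15HT averaged 57.0% ± 22.5 and Tex15WT 83.5% ± 15.9 (SD, n = 2 each) and single pups of the groups overlapped.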

How the data were processed

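Bisulfite-treated DNA of sorted germ cells was sequenced for 6 pups. The authors deposited raw counts at each CpG cytosine, which per the file headers are coverage, C calls and T calls. The tools named in the labels, per the submitters' processing notes, are BSMAP, Bismark and methylKit, and the build is mm9. Not given in the sources used here are their roles, the removal of PCR duplicates and the conversion rate from the 0.5% lambda spike. Strands were summed (8610279 CpGs from 10025464 cytosines), calls were summed over 1 kb tiles, and 330110 tiles (3 or more CpGs, 10 or more calls in each sample) were tested. The quasi-likelihood test of edgeR 4.0.16 (R 4.3.3) took counts of both kinds of call, with a separate intercept for each sample and all 6 samples fitted together. Limma 3.58.1 was the other tool, with a pseudocount of 1, and p was Benjamini-Hochberg adjusted over all tested tiles.

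On simulated counts (30000 tiles, 200 changed), edgeR in Tex15KO against Tex15WT recovered 94 of 100 tiles cut to 10% of their level and 32 of 100 cut to 40%, with 0 false calls. The simulation gave every sample the same spread and held no library with few covered CpGs like Tex15KO 3. These rates therefore cannot be carried over to the calls in these data. Promoters were placed by CpG spacing (7 or more CpGs shared, at least 50% of the promoter's, 0 extra), at 1 place only, and sequences are from RefSeq (GRCm38.p6). Named tiles were the edgeR calls, the 10 largest decreases, the 3 largest increases, the 5 with most calls, the 3 with most CpGs and the 2 on each side of the threshold. The members, lists and naming rules were chosen with earlier results of these data known. Nothing in the labels says whether pups share a litter.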

Additional observations from a re-analysis of the deposited data

How the results depend on the processing

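The mean level over the members was lower in Tex15KO than in either control group under the settings tried, but the size of the gap and the number of calls moved. The median tile level, averaged over the pups of a group, was 92.6% ± 4.13 in Tex15KO, 90.1% ± 0.792 in Tex15HT and 88.0% ± 2.13 in Tex15WT (SD, n = 2 each). The higher value in Tex15KO rested on Tex15KO 3 (95.5%). Tex15KO 16 was at 89.7%, within the 86.5 to 90.6% of the controls. The number of members was 876 and became 27 with at least 30 CpGs. The mean difference of Tex15KO from Tex15WT (-1.77 points) was -9.49 there, -5.59 with calls summed over the members, -1.18 with a control level of 70% or more and -0.759 with tiles shifted by 500 bp, and from Tex15HT (-3.31 points) it was -10.1 and -6.25, then -3.50 with 30 calls in each sample, -2.82 at 70%, -2.68 with shifted tiles, -3.06 without the top 0.1% of coverage and -3.08 as a mean over CpGs. Left out 1 at a time, the samples gave 876 to 1015 members and differences of -2.80 to -0.862 from Tex15WT and -3.53 to -3.26 from Tex15HT. The 23 members over 30 points below all controls became 3 with 30 CpGs, 14 at 70%, and 24 to 78 with a sample left out; the 0 above became 0 to 17. Tex15KO 3 alone, an alternative added after the data were seen, gave 78 below and 17 above.

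Called members against Tex15WT (4) were 0 without the top 0.1% of coverage and 1 to 106 with a sample left out, the 106 without Tex15KO 16 being 53 lower and 53 higher. Against Tex15HT (2) they were 4 in limma, 4 with 30 calls, 0 without the top coverage and 1 to 93, and against both (7) they were 15 in limma, 2 without the top coverage and 2 to 123. The cause was not tested. Of the adjusted p of the 12 tiles named for a call or a large decrease, against Tex15WT and against Tex15HT, 152 kept their side of the threshold, 38 came under it, 20 left it and 0 changed direction; this was not run against both groups together. Between Tex15HT and Tex15WT the count was 0 in each, also 0 to 0 with a sample left out. No paired analysis was possible because the pup numbers are not shared between groups. With 2 pups a group, of which Tex15KO 3 covered 38.4% of the member CpGs, depth limits what a single tile can show.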
